A study of Mus musculus with 32 samples.

Results

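A set of 7 genes that glucocorticoids are known to switch on or that carry the hormone's signal were followed in mouse kidney after cisplatin: Fkbp5, Tsc22d3, Zbtb16, Klf9, Nr3c1, Cebpd and Errfi1. They were taken by symbol from a count table of 54532 genes, and all 7 were found and passed the filter on low counts in each comparison. Cisplatin is a platinum chemotherapy drug that injures the kidney tubule. The libraries came from kidneys of 32 wild-type C57BL/6 mice, 4 males and 4 females at Day 0 and 4 of each sex at Day 2, Day 3 and Day 5 after 1 intraperitoneal dose of 20 mg/kg. Day 0 mice are the healthy controls of the study, although the labels of the female Day 0 mice also list cisplatin. Each library was 1 mouse, and every change from Day 0 within a sex was set against the same 4 control mice. Fkbp5 and Cebpd had been picked out from earlier results of these data, so their levels and changes are described here without a test. The other 5 genes were tested with the quasi-likelihood test of edgeR and Benjamini-Hochberg adjustment over all genes, and "rose" or "fell" is used at an adjusted p under 0.05, except for Zbtb16, whose changes are given as values.

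Glucocorticoids such as corticosterone enter the cell and bind the glucocorticoid receptor, which Nr3c1 encodes. The receptor waits in the cytosol in a complex with heat shock proteins and large immunophilins, moves to the nucleus when it holds hormone, and acts there on genes near its binding sites. Fkbp5 encodes FKBP51, an immunophilin that lowers the receptor's affinity for hormone and so closes a negative feedback loop. Tsc22d3 encodes GILZ, a leucine zipper protein with anti-inflammatory action. Zbtb16 encodes the zinc finger repressor PLZF, Klf9 a Kruppel-like transcription factor, and Cebpd the transcription factor C/EBP delta, which inflammatory signals also induce. Errfi1 encodes MIG6, which blocks the kinase of the EGF receptor family. In kidney the hormone acts on tubule transport and on inflammatory cells.

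The genes lie apart in the genome. In the deposited coordinates, which match GRCm38, Fkbp5 spans chr17:28399094-28517527, Tsc22d3 chrX:140539528-140600659 and Zbtb16 chr9:48654297-48836222, all on the minus strand, as is Nr3c1. Klf9 spans chr19:23141226-23166911, Cebpd chr16:15887286-15891031 and Errfi1 chr4:150853919-150868892, on the plus strand. Reads were counted over whole genes, so a value is the sum over exons of all isoforms. Cebpd overlaps Spidr, a protein-coding gene on the opposite strand with 30 to 1082 counts per library. Whether the counting used strand is not given in the sources used here, so reads of that pair may not be fully separated.

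The receptor binds DNA as a dimer at a pair of 6-base sites, AGAACA and TGTTCT (the same site read on the other strand), with 3 free bases between them. RefSeq promoters (GRCm38.p6, 250 bases before to 50 after a transcript start) were held for Fkbp5 (1), Tsc22d3 (3), Klf9 (1) and Errfi1 (2). A single site on either strand was found in 1 of these 7 stretches, against 19.0% of all 32851 promoters in the table. It lies 185 bases before the upstream start of Tsc22d3, and is shown because it is the only single site found in a member's promoter. The 30 bases around it, at chrX:140600690-140600719 on the minus strand, are written 5′ to 3′ with the site in capitals.
Tsc22d3 promoter 2: ccgcattcgacaTGTTCTaagttctgagac
The full pair was in none of the 7 stretches and in 0.00913% of all promoters, and the looser pair of GNACA and TGTNC, also with 3 free bases between, in none of them and 0.475%. These letters were sought only in the windows named, and more distant sites were not searched.

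The libraries held 16502107 to 35961325 counts. Mitochondrial genes took 4.49% to 23.97% of the counts through Day 3, 42.5% to 79.8% in the 4 male Day 5 libraries and 9.30% to 77.9% in the female ones. Xist, the RNA of the inactive X chromosome, had 4153 counts in the library labelled male Day 5 mouse 1 and Y-linked genes 387, so the calls of the 7 genes that it moves are also given without it. Among the controls, female Day 0 mouse 1 had 221 Y-linked counts, against 0 in all treated females, and male Day 0 mouse 4 had 242 Xist counts, against at most 5 in males at Day 2 and Day 3. The other 3 male Day 5 libraries had 260, 89 and 59 Xist counts, and female Day 0 mice 2, 3 and 4 had 5, 44 and 66 Y-linked counts. Markers of the adrenal cortex, the gland that makes glucocorticoids, summed to 0.730 to 18.1 CPM (TMM-scaled counts, set to the same depth in every library) in male and 3.15 to 325 in female Day 0 libraries. They summed to 10.55 to 490 CPM at male Day 2, 3.97 to 62.5 at male Day 3 and 32.7 to 161 at male Day 5. In females they summed to 2.90 to 4.51 at Day 2, 25.5 to 2060 at Day 3 and 514 to 1373 at Day 5. At male Day 5, 4 of the 5 tested passed edgeR's test with higher values (1 to 5 with 1 mouse left out in turn). Only 1 of these markers was tested at male Day 3. With low control counts, the others tested at male Day 5 passed the filter through the Day 5 mice, where they are high, so no rise is called. Proximal tubule markers had a median sum of 8576 CPM at male Day 0 and 830 at male Day 5, where 2 of the 8 markers fell by the test (1 to 8 with 1 mouse left out in turn, 8 without mouse 1 of that group), beside 19.2% of all genes called. In bulk tissue, fewer cells of a type and less RNA per cell cannot be told apart.

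Levels of different genes were compared per length only. On the deposited FPKM scale (counts per kilobase, scaled for library size), the mean level of Errfi1 was highest, at 83.4 in male and 127 in female mice at Day 0. Klf9 came next by mean in males at 14.8 (SD 11.2), and Tsc22d3 in females at 15.2 (SD 4.54), beside Cebpd at 13.2 (SD 3.16) and Klf9 at 12.8 (SD 20.6), and neighbours in this order after Errfi1 and down to Nr3c1 did not differ beyond their spread. Zbtb16 was lowest by far, with mean FPKM of 0.189 in males and 0.222 in females. At Day 0, Nr3c1, Fkbp5 and Tsc22d3 stood at mean FPKM of 7.38, 7.05 and 6.86 in males, with SDs of 0.982, 1.53 and 1.19, so these neighbours did not differ beyond their spread. At Day 3 the mean FPKM of Fkbp5 was 12.5 (SD 7.66) in males and 16.9 (SD 8.24) in females, beside 10.4 (SD 1.70) and 7.36 (SD 1.17) for Nr3c1. Fkbp5 was above Nr3c1 in 1 of 4 males and 3 of 4 females.

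**Figure D1:**
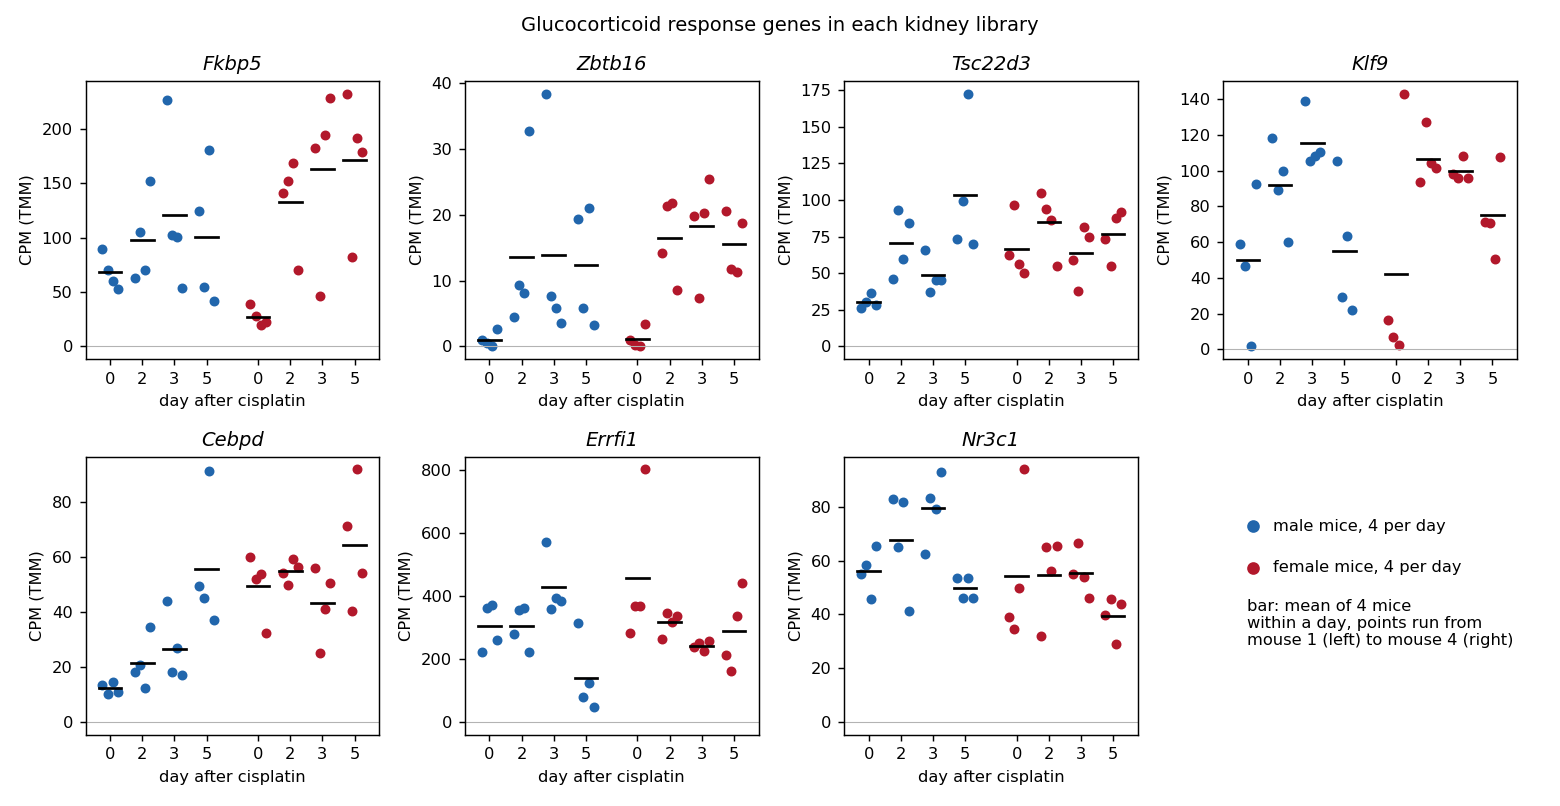
CPM (vertical axis, TMM-scaled, linear) of each of the 7 genes in each mouse against the day after cisplatin, males in blue and females in red, with a bar at the mean of 4 mice. Fkbp5 in females moves from 19.8 to 39.2 CPM at Day 0 to 46.6 CPM or more at all later days, Zbtb16 has its lowest values at Day 0, and Klf9 at Day 0 spreads from 1.68 to 143 CPM.

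Fkbp5 showed its largest increase in female mice. The 4 female Day 0 mice had 39.2, 28.0, 19.8 and 22.9 CPM of Fkbp5. The Day 2 females had 141, 153, 169 and 70.3 CPM, those of Day 3 182, 46.6, 194 and 229 CPM, and those of Day 5 233, 82.0, 191 and 179 CPM. Every treated female lay above every female control, with mouse 4 of Day 2, mouse 2 of Day 3 and mouse 2 of Day 5 lowest in their groups. The log2 fold change against Day 0 was 2.28 ± 0.33 (SE) at Day 2, 2.56 ± 0.46 at Day 3 and 2.63 ± 0.34 at Day 5.

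In male mice Fkbp5 started higher and moved less. The male Day 0 mice had 89.5, 70.4, 60.2 and 53.3 CPM of Fkbp5, all above the highest female control, a log2 difference of 1.30 ± 0.26. Treated males had 62.7, 105, 70.5 and 152 CPM at Day 2, 227, 102, 100 and 53.4 CPM at Day 3 and 125, 54.4, 181 and 41.6 CPM at Day 5. Each of these ranges overlapped the controls. The log2 fold changes were 0.53 ± 0.29, 0.82 ± 0.39 and 0.62 ± 0.43. With each mouse left out in turn they ran from 0.22 to 0.69, 0.33 to 1.07 and 0.16 to 0.87. The sex difference in the change (male minus female) was -1.78 ± 0.45 at Day 2, -1.76 ± 0.63 at Day 3 and -2.04 ± 0.58 at Day 5. After treatment male and female levels of Fkbp5 overlapped at all 3 days.

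The adrenal markers moved with Fkbp5, with r = 0.53 between its deviations from the group means and those of their log2 sum over the 24 treated mice. At female Day 2, where these markers summed to at most 4.51 CPM, the log2 fold change of Fkbp5 against Day 0 was 2.28. Without the libraries over 100 CPM of adrenal cortex markers, the log2 fold change of Fkbp5 was 2.31 at female Day 2. There only control mouse 2 (325 CPM) was left out and no treated library. It was 2.06 at female Day 3, where 2 treated libraries were left. All 4 female Day 5 libraries were over that level, so no such value can be given there. The part of the adrenal markers in the change of Fkbp5 was not tested at any day.

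**Figure D2:**
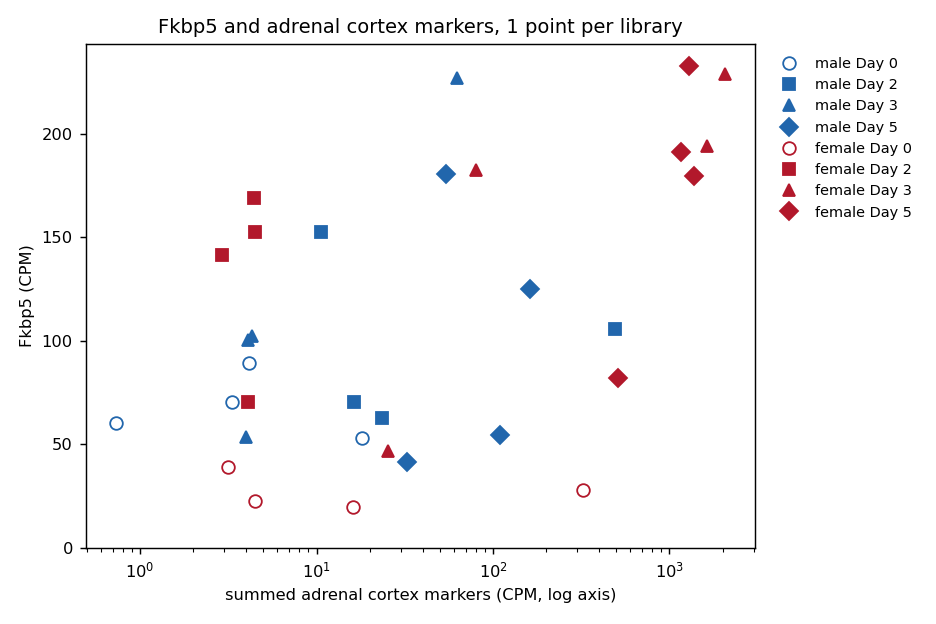
Fkbp5 (CPM, linear vertical axis) against the summed adrenal cortex markers (CPM, log horizontal axis), 1 point per library, blue for male, red for female, open for Day 0. The female Day 2 libraries combine marker sums under 5 CPM with Fkbp5 from 70.3 to 169 CPM, and the female Day 0 library with a sum of 325 has 28.0 CPM of Fkbp5, while the 4 female Day 5 libraries combine sums of 514 to 1373 with Fkbp5 from 82.0 to 233 CPM.

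Zbtb16 had the largest fold change of the 7 genes in both sexes, from a level close to none. Counts of Zbtb16 at Day 0 were 17, 11, 0 and 46 in males and 31, 9, 0 and 129 in females, or 0 to 2.65 and 0 to 3.48 CPM. Treated male mice had 4.48, 9.32, 8.07 and 32.7 CPM at Day 2, 38.4, 7.68, 5.89 and 3.50 CPM at Day 3 and 19.3, 5.79, 21.1 and 3.23 CPM at Day 5. Every treated male exceeded every male control, with 1 mouse far above the rest at Day 2 and at Day 3. The log2 fold change was 3.78 ± 1.02 at Day 2 (adjusted p = 0.066), 3.81 ± 1.12 at Day 3 (0.041) and 3.69 ± 1.02 at Day 5 (0.035). Without mouse 1 of Day 3 the log2 fold change at Day 3 was 2.50 (adjusted p = 0.14), and without the library labelled male Day 5 mouse 1 that at Day 5 was 3.39 (0.054). The adjusted p of Day 3 and of Day 5 stayed under 0.05 in 2 of 8 fits each that left out 1 mouse. With its low control counts Zbtb16 passed the filter through the treated mice, where it is high, and with no filter on low counts the adjusted p were 0.086 and 0.14, so these p are given as values and no rise is called.

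In females Zbtb16 reached 14.2, 21.4, 21.8 and 8.52 CPM at Day 2, 19.9, 7.37, 20.3 and 25.4 CPM at Day 3 and 20.6, 11.8, 11.4 and 18.8 CPM at Day 5. These 12 values also lay above all 4 controls. The log2 fold changes were as large as in males, at 3.76 ± 0.98, 3.89 ± 1.02 and 3.68 ± 0.98, but the adjusted p were 0.066, 0.052 and 0.17 in edgeR's test. Without control mouse 4, which had the 129 counts, the log2 fold changes were 5.22, 5.35 and 5.15 and the adjusted p 0.0040, 0.0037 and 0.015, in fits where the share of all genes past the test was 28.3%, 39.1% and 12.6% in place of 1.93%, 5.54% and 0.258%.

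**Figure D3:**
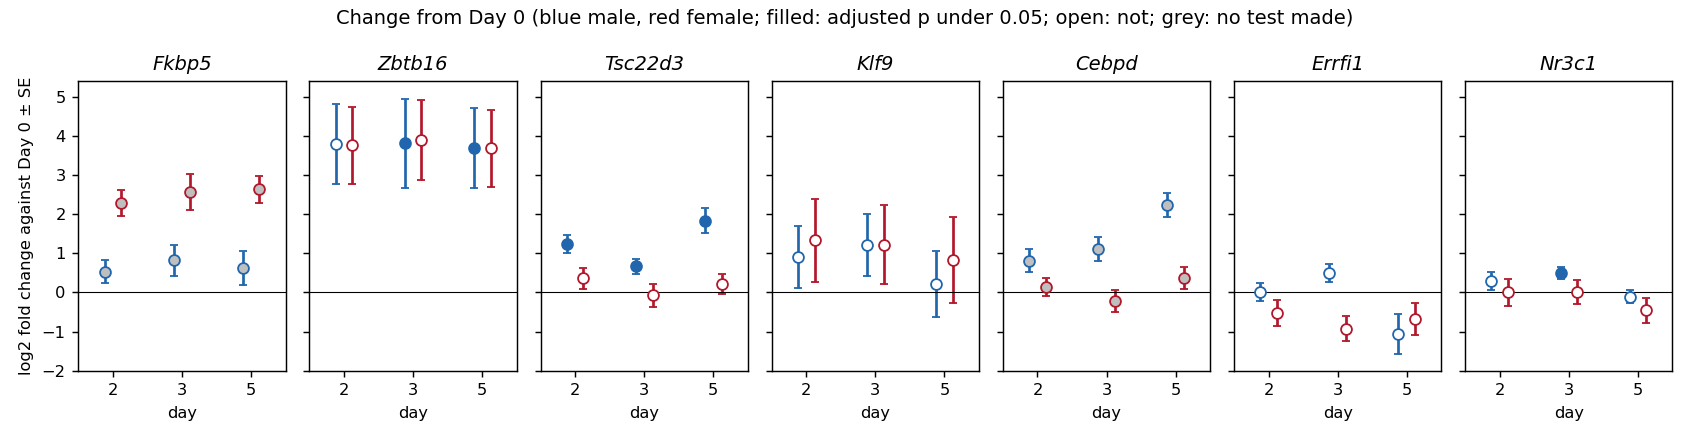
Log2 fold change against Day 0 of the same sex with its SE (vertical axis) at Day 2, 3 and 5 (horizontal axis), blue for male and red for female mice, filled where the adjusted p was under 0.05 (for Zbtb16 not so with no filter on low counts), open where not and grey for the 2 genes given no test. Zbtb16 lies between 3.68 and 3.89 in both sexes, Fkbp5 is higher in females, and Cebpd and Tsc22d3 are higher in males.

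Fkbp5 and Zbtb16 varied together from mouse to mouse. Deviations from the group mean of log2(CPM + 1) were compared over the 24 treated mice, and all 21 pairs among the 7 genes were tested by permuting mice within groups. These correlations were chosen after seeing the data. In which comparison Fkbp5 and Cebpd had been picked is not known here, so the p of their pairs are given as a description. Fkbp5 and Zbtb16 had Pearson's r = 0.89 and Spearman's rho = 0.94 (permutation p = 1e-05 and 2e-05, adjusted over 21 pairs 0.00021 and 0.00042; 100000 permutations, two-sided, the first p being the smallest they can give). The r was 0.95 in the 12 males, 0.89 in the 12 females, 0.88 without the 2 mice farthest in Fkbp5, 0.93 over 15 mice in libraries up to 100 CPM of adrenal cortex markers and 0.88 over 19 mice up to 75% mitochondrial counts, leaving out also male Day 5 mouse 1, which was then alone in its group. The mice that were high in Zbtb16 (male Day 2 mouse 4, male Day 3 mouse 1, male Day 5 mice 1 and 3) were the highest of their groups in Fkbp5, and female Day 3 mouse 2 was lowest in both.

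Seen across all genes, Zbtb16 had the 8th highest r with Fkbp5 among 18219 genes, and Fkbp5 the highest of all with Zbtb16. The genes closest to Fkbp5, named after their values were seen, were Hif3a, a hypoxia-inducible factor subunit that glucocorticoids induce (r = 0.95), then Sec14l5 (0.91) and 1700007K13Rik (0.90). Cox6b2, Gdf15, Pvt1 and Aen (each 0.89) also stood above Zbtb16. The median r of all genes with Fkbp5 was 0.01, and the 5th and 95th percentiles were -0.52 and 0.57. Of 26 other glucocorticoid-induced genes, 13 lay above that upper bound, and the median r of all 26 was 0.54. The lowest of the 26 were Tat (0.10), Bcl6 (-0.02) and Fam107a (-0.52). Mice of a group share no library, but depth, tissue make-up and injury differ between them: over the same 24 mice, Fkbp5 had, beside the value for the adrenal markers, r = -0.37 with the mitochondrial share and -0.12 with the log2 sum of proximal tubule markers, and the part of these in the relation was not tested beyond the values given.

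**Figure D4:**
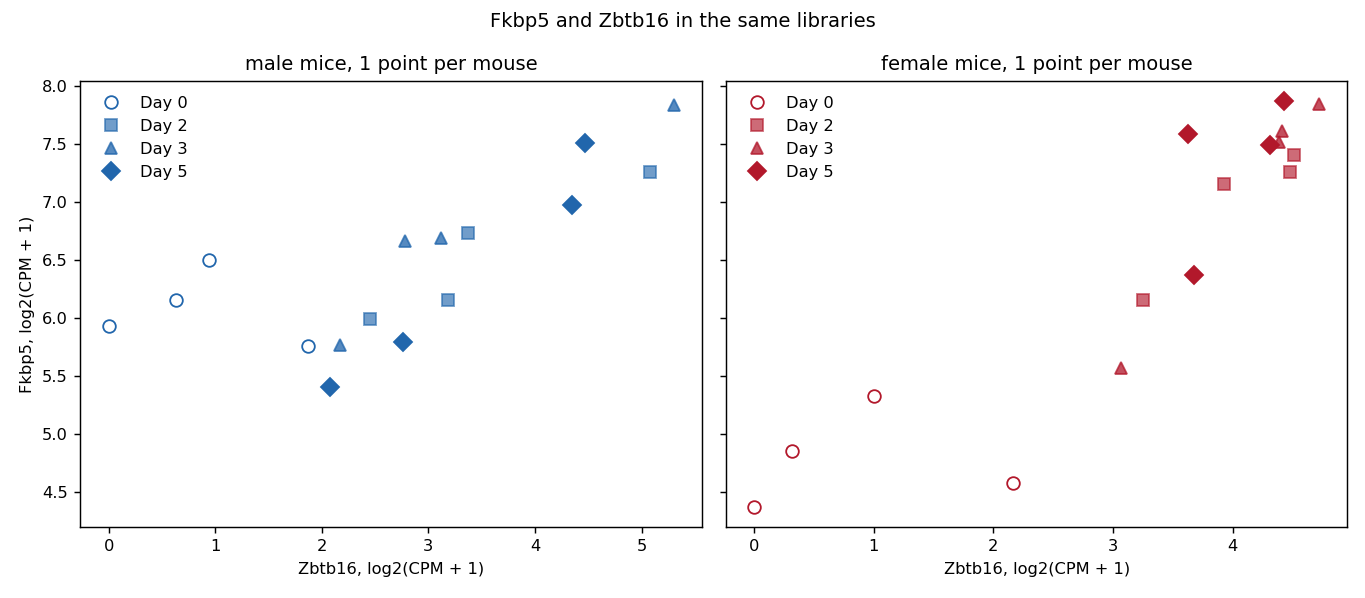
Fkbp5 against Zbtb16, both as log2(CPM + 1), in male mice (left, blue) and female mice (right, red), 1 point per mouse, with open circles for Day 0. Treated mice of both sexes line up from low in both genes to high in both, and the Day 0 mice lie lowest on the Zbtb16 axis.

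The other targets joined this pattern unevenly. Tsc22d3 had r = 0.77 (rho = 0.72) and Cebpd r = 0.81 (rho = 0.80) with Fkbp5 (adjusted permutation p of r = 0.0029 and 0.00073). Zbtb16 had r = 0.72 with Cebpd and 0.64 with Tsc22d3, and Tsc22d3 and Cebpd had r = 0.67 (adjusted permutation p = 0.0088, 0.012 and 0.0097), with rho of 0.64, 0.67 and 0.62. Nr3c1 ran the other way for 3 of these 4, with r = -0.46 to Fkbp5, -0.50 to Tsc22d3 and -0.56 to Cebpd (adjusted permutation p = 0.035, 0.035 and 0.0097, rho = -0.42, -0.58 and -0.53). The relation of Nr3c1 to Fkbp5 did not pass by rho (adjusted permutation p = 0.083), and that to Zbtb16 passed by neither (r = -0.41 and rho = -0.31, adjusted permutation p = 0.10 and 0.21, and r = -0.13 without the 2 farthest mice).

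Klf9 and Errfi1 had r = 0.34 and 0.41 with Fkbp5, which did not pass (adjusted permutation p = 0.31 and 0.17), and whether these r differ from those above was not tested. They had r = 0.81 with each other (rho = 0.66, adjusted permutation p = 0.018 and 0.032), but this came down to 0.53 without male Day 5 mice 1 and 4 and was 0.33 in females. Klf9 also had r = 0.44 with Nr3c1 (rho = 0.48, adjusted permutation p = 0.012 and 0.041). Errfi1 deviated with the mitochondrial share at r = -0.72, and over the same 19 mice up to 75% mitochondrial counts its r with Klf9 was 0.55. Without the 2 farthest mice, r was 0.70 for Fkbp5 and Tsc22d3, 0.77 for Fkbp5 and Cebpd, 0.58 for Zbtb16 and Cebpd and also for Zbtb16 and Klf9, 0.56 for Zbtb16 and Tsc22d3, 0.52 for Zbtb16 and Errfi1, 0.55 for Tsc22d3 and Cebpd, 0.54 for Klf9 and Nr3c1, and -0.48, -0.58 and -0.60 for Nr3c1 with Fkbp5, Tsc22d3 and Cebpd.

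Tsc22d3 rose in male mice at each day and in no female group. The male controls had 26.0, 30.2, 36.6 and 28.5 CPM of Tsc22d3. Treated males had 45.9, 93.0, 59.9 and 84.1 CPM at Day 2, 65.9, 37.0, 45.2 and 45.7 CPM at Day 3 and 73.1, 99.2, 173 and 69.9 CPM at Day 5. No treated male overlapped the controls, although mouse 2 of Day 3 was within 1 CPM of the highest. The log2 fold change was 1.23 ± 0.23 at Day 2 (adjusted p = 0.040), 0.67 ± 0.19 at Day 3 (0.038) and 1.83 ± 0.31 at Day 5 (0.0094), with a further rise of 1.19 ± 0.31 from Day 3 to Day 5 (0.017).

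The female controls already held Tsc22d3 at 62.2, 96.3, 56.2 and 50.4 CPM, above every male control. That Day 0 difference of the sexes (log2 -1.14 ± 0.24, male minus female) had an adjusted p of 0.10. Treated females ranged from 54.9 to 105 CPM at Day 2, 37.98 to 81.8 at Day 3 and 54.7 to 91.7 at Day 5, overlapping the controls, with log2 fold changes of 0.36 ± 0.28, -0.07 ± 0.28 and 0.21 ± 0.25 (adjusted p = 0.43, 0.87 and 0.70). The test of the difference between the sexes in the change gave a log2 difference of 0.85 ± 0.37, 0.73 ± 0.36 and 1.60 ± 0.41 at Day 2, 3 and 5 (adjusted p = 0.99992, 0.73 and 0.099 in edgeR's test). Without the library labelled male Day 5 mouse 1, the last was 1.74 with an adjusted p of 0.015.

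The male Tsc22d3 calls differed in how far single libraries carried them. At Day 5 the call held in all 8 fits that left out 1 mouse, with log2 fold changes of 1.46 to 1.99, the highest without the library labelled male Day 5 mouse 1 (adjusted p = 0.0022). At Day 2 it held in 3 of 8 and at Day 3 in 1 of 8, with log2 fold changes of 1.07 to 1.39 and 0.49 to 0.79. The rise from Day 3 to Day 5 held in 7 of 8, with 0.82 to 1.37, and was lost without male Day 3 mouse 2 (adjusted p = 0.053 in edgeR's test). Without male Day 2 mouse 2, whose adrenal cortex markers summed to 490 CPM, the Day 2 log2 fold change of Tsc22d3 was 1.07 (adjusted p = 0.13). With only mouse 1 left at Day 5, after removing the 3 libraries over 75% mitochondrial counts, the Day 5 log2 fold change was 1.35 (adjusted p = 0.39). Between male Day 0 and Day 5 the median sums of leukocyte, adipocyte and adrenal cortex markers also went up. So did those of collecting duct (632 to 1431 CPM), endothelium (209 to 344 CPM), adrenal medulla and skeletal muscle. Those of proximal tubule, thick ascending limb and podocytes were lower. Over the 24 treated mice the deviations of Tsc22d3 had r = 0.43, 0.35 and 0.53 with the log2 sums of leukocyte, adipocyte and adrenal cortex markers. Their part in the result was not tested.

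Cebpd followed Tsc22d3 in being low in untreated males. It had 13.6, 10.1, 14.7 and 10.9 CPM in male controls and 60.1, 52.1, 53.9 and 32.3 CPM in female controls, a log2 difference of -2.02 ± 0.24 (male minus female). In males it went to 18.1, 20.8, 12.5 and 34.6 CPM at Day 2, 44.1, 18.3, 26.9 and 17.1 CPM at Day 3 and 49.3, 45.2, 91.2 and 37.2 CPM at Day 5. The Day 3 and Day 5 values all lay above the controls. The log2 fold changes against Day 0 were 0.81 ± 0.30, 1.11 ± 0.31 and 2.24 ± 0.30, and 1.88 to 2.39 at Day 5 when each mouse was left out in turn.

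In females Cebpd overlapped its controls at each day. It ranged from 49.8 to 59.4 CPM at Day 2, 25.3 to 56.2 at Day 3 and 40.4 to 91.9 at Day 5, with 1 mouse below the control range at Day 3 and 2 above it at Day 5, and log2 fold changes of 0.14 ± 0.22, -0.21 ± 0.28 and 0.38 ± 0.28. The sexes therefore drew together in the level of Cebpd: the log2 difference (male minus female) was -1.37 ± 0.25 at Day 2, -0.73 ± 0.36 at Day 3 and -0.15 ± 0.32 at Day 5, and the ranges overlapped at Day 3 and Day 5. The difference in the change was 0.65 ± 0.37, 1.30 ± 0.43 and 1.84 ± 0.43. Leukocyte markers summed to 38.1 to 110 CPM at male Day 0 and 46.0 to 330 CPM at male Day 5, and adipocyte markers to 514 to 2736 and 965 to 4909 CPM. The adrenal cortex sums, proximal tubule sums and mitochondrial shares of these libraries also differed, as given above. The part of all these in the Cebpd values was not tested.

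Klf9 passed edgeR's test in no comparison of all mice, and its values spread widely before treatment. The male controls had 58.7, 46.6, 1.68 and 92.4 CPM of Klf9 and the female controls 16.5, 6.87, 2.35 and 143 CPM. In both sexes mouse 3 was lowest, with 46 and 48 counts, and mouse 4 highest, and these 2 mice numbered 3 were also the controls with the fewest genes detected (17985 and 16265). After cisplatin the values closed up to 60.2 to 118 CPM in males and 93.4 to 127 CPM in females at Day 2, and 105 to 139 and 95.9 to 108 CPM at Day 3. At Day 5 they spread again, from 22.3 to 106 and from 50.5 to 108 CPM.

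The log2 fold changes of Klf9 were 0.90 ± 0.79, 1.22 ± 0.80 and 0.22 ± 0.85 in males and 1.33 ± 1.06, 1.22 ± 1.012 and 0.82 ± 1.10 in females at Day 2, 3 and 5 (adjusted p from 0.28 to 0.87). Only the male Day 3 values lay wholly above their controls. Single controls carried much of the size: without female Day 0 mouse 4 the log2 fold changes were 3.62, 3.51 and 3.12 (adjusted p = 0.0035, 0.0033 and 0.023), while without male Day 0 mouse 3 the male Day 3 change was 0.81 (adjusted p = 0.025). In these fits 28.3%, 39.1%, 12.6% and 38.6% of all genes passed. Without the library labelled male Day 5 mouse 1, Klf9 went from a log2 change of -0.98 between Day 3 and Day 5 (adjusted p = 0.089) to -1.53 (0.0020).

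Errfi1, the inhibitor of EGF receptor signalling, passed the test in males from Day 3 to Day 5 and between the sexes at Day 3, and in no comparison with Day 0. The male controls had 222, 362, 373 and 261 CPM. Male Day 3 mice had 573, 359, 396 and 386 CPM and male Day 5 mice 314, 80.7, 124 and 48.3 CPM, so all Day 5 males lay below all Day 3 males. Errfi1 fell from Day 3 to Day 5 by 1.52 ± 0.50 on the log2 scale (adjusted p = 0.039), a call that held in 1 of 8 fits without 1 mouse (without the library labelled male Day 5 mouse 1, -2.27 and adjusted p = 0.00018), while the changes from Day 0 were 0.02 ± 0.24, 0.49 ± 0.23 and -1.05 ± 0.51 (adjusted p = 0.97, 0.14 and 0.17). The 3 lowest Day 5 males were those over 75% mitochondrial counts, and the part of that share was not tested. Without the library labelled male Day 5 mouse 1, the change from Day 0 was -1.78 (adjusted p = 0.0084).

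In females Errfi1 had 285, 370, 369 and 803 CPM at Day 0, then 265 to 348 CPM at Day 2, 225 to 259 CPM at Day 3 and 162 to 442 CPM at Day 5. All Day 3 females lay below the controls, with a log2 fold change of -0.92 ± 0.32 (adjusted p = 0.092), against -0.53 ± 0.34 at Day 2 and -0.67 ± 0.41 at Day 5 (0.34 and 0.44). At Day 3 Errfi1 was higher in males than in females by 0.79 ± 0.14 on the log2 scale (adjusted p = 0.0054), with no overlap and in all 8 fits without 1 mouse. It was 0.78 (adjusted p = 0.062) over the 2 female libraries up to 100 CPM of adrenal cortex markers, and 0.82 (adjusted p = 0.47) in a joint fit of all 8 groups. The control with 803 CPM carried part of the female change, which without it was -0.50 (adjusted p = 0.028). The test of whether the sexes changed differently by Day 3 gave 1.39 ± 0.40 with an adjusted p of 0.48.

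Nr3c1, the receptor itself, moved little. The male controls had 55.0, 58.3, 45.7 and 65.4 CPM, male Day 3 mice 62.3, 83.3, 79.1 and 93.0 CPM and male Day 5 mice 53.4, 46.1, 53.7 and 46.0 CPM. Nr3c1 rose at male Day 3 by 0.50 ± 0.16 on the log2 scale (adjusted p = 0.047), with 1 mouse inside the control range, and the call held in 2 of 8 fits without 1 mouse. It then fell from Day 3 to Day 5 by 0.58 ± 0.14 (adjusted p = 0.013), with no overlap and in all 8 such fits. At Day 2 and Day 5 the log2 fold changes against Day 0 were 0.28 ± 0.23 and -0.11 ± 0.16 (adjusted p = 0.43 and 0.67).

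The female Nr3c1 values were 39.0, 34.6, 49.7 and 93.9 CPM at Day 0 and 32.01 to 65.5, 46.3 to 66.7 and 29.0 to 45.8 CPM afterwards. The log2 fold changes were 0.00 ± 0.34, 0.02 ± 0.31 and -0.46 ± 0.32 (adjusted p = 0.99, 0.98 and 0.50). At Day 3 Nr3c1 was higher in males than in females by 0.49 ± 0.14 (adjusted p = 0.036), although the ranges overlapped. That call held in 2 of 8 fits without 1 mouse, and the difference was 0.35 (adjusted p = 0.23) without the adrenal-rich libraries.

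Counting the tested genes besides Zbtb16, Tsc22d3 rose at male Day 2, where 3.16% of 16051 genes passed the test, Tsc22d3 and Nr3c1 rose at male Day 3, where 24.5% of 15908 passed, and Tsc22d3 rose at male Day 5, where 19.2% of 14969 passed. From male Day 3 to Day 5, 1 rose and 2 fell, against 37.9% of all genes past the test. Without the library labelled male Day 5 mouse 1, Klf9 passed as well, beside 8814 of 15976 genes. Between the sexes at Day 3, 2 of 5 were higher in males, against 21.3%. The members' shares were not compared with the background by a test, and 5 genes are few.

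In females 0 of the 5 passed edgeR's test at Day 2, 3 or 5, where 1.93%, 5.54% and 0.258% of genes did. Zbtb16, for which no rise is called, is counted among the 5 here. At an unadjusted p under 0.05 there were 1, 2 and 1 genes (Zbtb16 at each day), by the DESeq2 Wald test 1, 2 and 1, and by limma voom with sample quality weights 3, 3 and 2. None passed between the sexes at Day 0 (0.449% of genes), Day 2 (1.47%) or Day 5 (0.276%), with 1, 0 and 0 at an unadjusted p under 0.05, 1, 0 and 0 by DESeq2 and 2, 0 and 3 by voom. Without the library labelled male Day 5 mouse 1, Errfi1 (log2 -1.66, adjusted p = 0.014, against -0.97 and 0.33 with it) and 2644 of 15562 genes passed between the sexes at Day 5, and 1 member (Tsc22d3) and 1173 of 17410 genes in the sex difference of the Day 5 change. None passed in the sex difference of the change at Day 2 (0% of genes, 738 at an unadjusted p under 0.05), Day 3 (0.0114%) or Day 5 (0.243%), with 1 member at an unadjusted p under 0.05 in each, 0, 0 and 1 by DESeq2 and 1, 0 and 2 by voom. The steps from Day 2 to Day 3 in males and females and from Day 3 to Day 5 in females called 0% of genes (1410, 678 and 1973 at an unadjusted p under 0.05), and of the members 2, 1 and 1 had such a p while DESeq2 and voom called 0 in each.

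Other genes known to be induced by glucocorticoids gave the 7 a frame. Of 26 listed, 24 were tested at male Day 2, 3 and 5. In males 7, 8 and 8 of them rose and 0, 0 and 1 fell, where 3.16%, 24.5% and 19.2% of all genes passed the test, with median log2 fold changes of 0.86, 0.56 and 0.81 beside 0.03, 0.02 and 0.04 over all genes tested. In females 2, 1 and 1 rose and none fell in edgeR's test, where 1.93%, 5.54% and 0.258% of all genes passed, with medians of 0.60, 0.39 and 0.58 beside 0.03 at each day. These counts depended on the test: DESeq2 called 11, 11 and 11 of the list in males and 8, 5 and 5 in females at Day 2, 3 and 5, and voom 16, 15 and 15 in males and 13, 13 and 13 in females. They also depended on single mice: with 1 mouse left out in turn, edgeR called 0 to 11, 1 to 12 and 4 to 9 in males and 0 to 10, 0 to 11 and 0 to 9 in females, most without male Day 0 mouse 3 and female Day 0 mouse 4. The calls over all genes in the same fits ran from 13 to 2306, 669 to 6220 and 832 to 3951 in males and from 21 to 4776, 0 to 6774 and 8 to 2082 in females.

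Hif3a, the gene closest to Fkbp5 from mouse to mouse, rose in males by 2.26 ± 0.47, 2.60 ± 0.62 and 2.50 ± 0.62 and in females by 2.93 ± 0.39 at Day 2 and 3.02 ± 0.54 at Day 3 on the log2 scale (adjusted p = 0.045, 0.023, 0.025, 0.0092 and 0.046). Map3k6, a stress kinase gene, rose in males by 2.29 ± 0.46, 2.50 ± 0.55 and 3.11 ± 0.55 (adjusted p = 0.043, 0.018 and 0.010), and its female values of 2.09, 2.06 and 2.38 did not pass. Pck1, the enzyme that commits carbon to gluconeogenesis, rose at male Day 3 by 2.04 ± 0.52 (adjusted p = 0.027). Angptl4, an inhibitor of lipoprotein lipase, rose at female Day 5 by 2.03 ± 0.25 (adjusted p = 0.011), and Foxo3 at female Day 2 by 1.02 ± 0.23 (adjusted p = 0.0499).

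Dusp1, a MAP kinase phosphatase through which glucocorticoids dampen inflammation, rose at male Day 2 by 1.69 ± 0.21 (adjusted p = 0.014), from 32.8 to 52.3 CPM at Day 0 to 104 to 166 CPM. Its female log2 fold changes were -0.31, -1.09 and -0.06 (adjusted p = 0.72, 0.18 and 0.97), and no gene passed the test of the sex difference in the Day 2 change (738 at an unadjusted p under 0.05, 21 by DESeq2 and 1950 by voom). Arl4d, a small GTPase gene, rose at male Day 5 by 2.73 ± 0.32 (adjusted p = 0.0038) and stood at 0.03 in females. The sex difference of the Day 5 change passed the test for 2 genes of the list, Arl4d at 2.68 ± 0.46 and Sgk1 at 1.58 ± 0.27 (adjusted p = 0.021 for both). That test called no gene of the whole table when mouse 1 of the male controls, mouse 1 of female Day 5 or any of mice 2, 3 and 4 of male Day 5 was left out. Sgk1, a kinase gene of sodium transport that aldosterone also induces, was named after its values were seen. It was lower in males than in females at Day 0 (log2 -1.24 ± 0.21, adjusted p = 0.045). In that comparison no gene passed without male Day 0 mouse 1 or female Day 0 mouse 2 or 3. The male values of Tsc22d3 (adjusted p = 0.10 in edgeR's test) and Cebpd (no test made) were also below the female ones there. Tgm2, a transglutaminase, fell at male Day 5 by 0.69 ± 0.21 (adjusted p = 0.047).

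**Figure D5:**
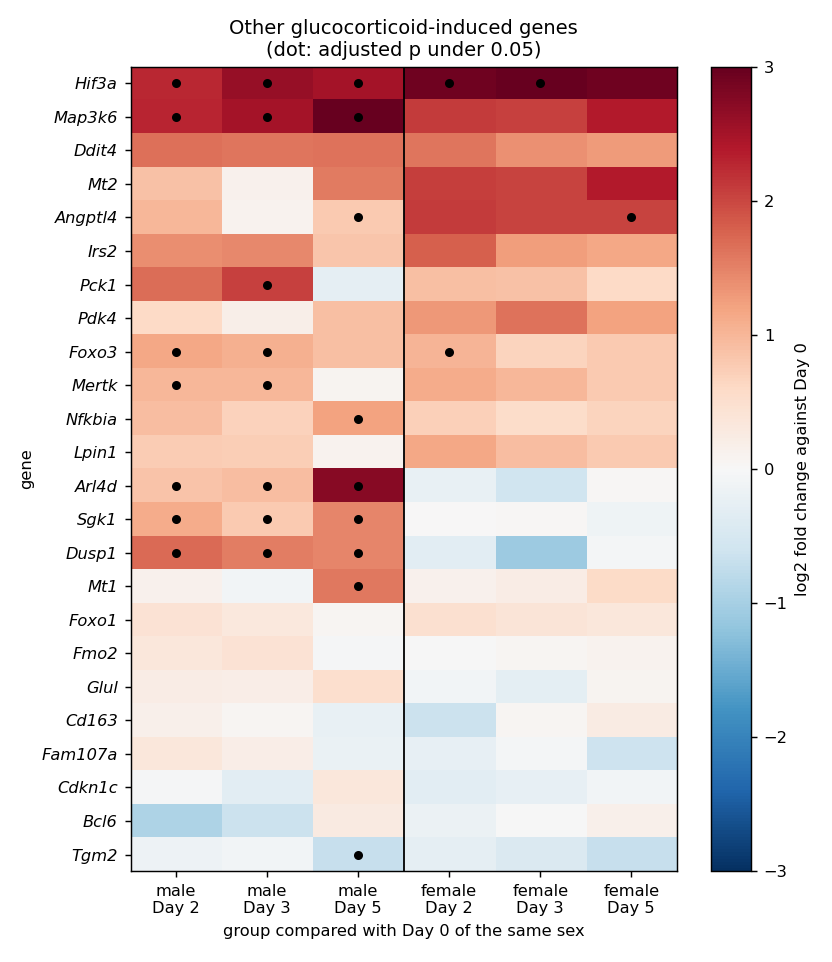
Log2 fold change against Day 0 of the same sex (colour, red for higher) for the 24 other glucocorticoid-induced genes tested in all 6 comparisons, one row per gene and one column per group, with a dot where the adjusted p was under 0.05. Hif3a and Map3k6 are above 2 in all 6 columns, while in the female columns only Hif3a, Foxo3 and Angptl4 have dots.

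Genes around the receptor changed in both directions. Of 18 tested in males and 19 in females, 0 rose and 1 fell at male Day 2, 5 rose and 4 fell at Day 3, and 3 rose and 2 fell at Day 5, while in females 1 rose at each day and 1 fell at Day 3. Over all genes the shares past the test on these days were 3.16%, 24.5% and 19.2% in males and 1.93%, 5.54% and 0.258% in females. With 1 mouse left out in turn, the calls ran from 0 to 8, 2 to 14 and 1 to 5 in males and from 1 to 10, 0 to 13 and 1 to 4 in females. Fkbp4 encodes FKBP52, the immunophilin that replaces FKBP51 and helps the receptor reach the nucleus. It fell in males by 0.79 ± 0.16, 0.92 ± 0.15 and 0.84 ± 0.24 and at female Day 3 by 1.19 ± 0.23 on the log2 scale (adjusted p = 0.040, 0.0080, 0.035 and 0.046). The chaperone genes Ptges3 and Hsp90aa1 fell at male Day 3 by 0.84 ± 0.20 and 0.82 ± 0.18 (adjusted p = 0.024 and 0.018), and St13 at male Day 5 by 0.63 ± 0.19 (0.046).

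Of the coregulators, Ncoa3 and Ncoa1 rose at male Day 3 by 0.59 ± 0.11 and 0.58 ± 0.13 (adjusted p = 0.012 and 0.018). Abcb1b, which encodes an efflux pump that carries glucocorticoids and drugs out of cells, rose at male Day 3 and Day 5 by 2.08 ± 0.49 and 3.39 ± 0.64 and in females by 3.16 ± 0.41, 3.401 ± 0.54 and 3.09 ± 0.34 (adjusted p = 0.022, 0.012, 0.0077, 0.046 and 0.0043). Its twin gene Abcb1a rose at male Day 5 by 2.61 ± 0.58 (0.018).

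Relatives of the 7 genes were counted from lists of their families. Of 13 other FK506-binding protein genes tested, none rose and 1, 6 and 2 fell in males and 1, 2 and 0 in females, beside the same shares over all genes. With 1 mouse left out in turn, 0 to 3, 2 to 7 and 0 to 4 were called in males and 0 to 7, 0 to 9 and 0 to 3 in females. Besides Fkbp4, Fkbp2 fell at male Day 3 by 1.42 ± 0.41 and in females at Day 2 and Day 3 by 2.05 ± 0.46 and 2.12 ± 0.46 (adjusted p = 0.038, 0.0498 and 0.048). Fkbp11 and Fkbpl fell at male Day 3, with log2 fold changes of -1.08 ± 0.27 and -1.001 ± 0.17 (0.026 and 0.0087), and Fkbp8 at male Day 5, with -0.83 ± 0.25 (0.046). Of the 3 TSC22 relatives of Tsc22d3 none passed against Day 0 in edgeR's test, and of 5 C/EBP relatives of Cebpd only Cebpz did so, at male Day 3 (0.33 ± 0.10, adjusted p = 0.041).

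Of the Kruppel-like factors besides Klf9, 1 of 14, 6 of 13 and 6 of 13 rose in males and 1 of 14 at each day in females, where Klf2 fell at Day 3 by 0.69 ± 0.17 (adjusted p = 0.049), again beside 24.5% of all genes at male Day 3 and 19.2% at male Day 5. The calls ran from 0 to 4, 0 to 6 and 3 to 8 in males and from 0 to 6, 0 to 9 and 0 to 5 in females with 1 mouse left out in turn. Klf10, a factor induced by TGF-beta, rose in females by 2.13 ± 0.40, 2.38 ± 0.44 and 2.31 ± 0.37 and at male Day 3 by 0.82 ± 0.19 (adjusted p = 0.035, 0.046, 0.035 and 0.020). Klf11 rose at male Day 2 by 1.21 ± 0.25 (0.045), Klf7 and Klf13 at male Day 3 by 1.78 ± 0.45 and 0.76 ± 0.22 (0.026 and 0.040), and Klf5, Klf4 and Klf2 at male Day 5 by 2.55 ± 0.56, 1.92 ± 0.55 and 1.496 ± 0.29 (0.017, 0.038 and 0.013). Of the 4 receptor genes whose products MIG6 binds, Egfr and Erbb3 rose at male Day 3 by 0.75 ± 0.11 and 0.41 ± 0.13 (0.0060 and 0.044). With 1 mouse left out in turn, 1 to 2 of the 4 were called there, and both in 2 of 8 fits.

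Inflammatory genes that glucocorticoids hold down in other settings formed another list. Of 15 listed, 8 to 11 had enough counts to be tested. In males 1, 2 and 2 rose, and in females 1, 1 and 0, with none falling in edgeR's test, beside 3.16%, 24.5% and 19.2% of all genes in males and 1.93%, 5.54% and 0.258% in females. Their median log2 fold changes were 0.37, 0.52 and 0.59 in males and -0.45, 0.48 and 0.50 in females, and 0 to 5 were called with 1 mouse left out in turn. Cxcl1, a neutrophil attractant, rose at male Day 2 and Day 3 by 3.91 ± 0.76 and 4.604 ± 0.74 (adjusted p = 0.040 and 0.0082). Icam1, an adhesion molecule, rose at male Day 3 and Day 5 by 1.62 ± 0.25 and 1.32 ± 0.29 and at female Day 2 and Day 3 by 2.55 ± 0.51 and 2.72 ± 0.56 (0.0073, 0.016, 0.040 and 0.046). Ptgs2, the inducible cyclooxygenase, rose at male Day 5 by 3.62 ± 0.96 (0.031).

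For each of the 7 genes, the 3 protein-coding genes with the most similar changes were sought among 13352, by the root mean square difference of the log2 fold changes over the 6 comparisons with Day 0. Fkbp5 was followed most closely by Klf10 (0.33), Cfap65 (0.36) and Atp8b5 (0.36). Zbtb16 had Inka2 (0.23), Cdkn1a, the p53-induced inhibitor of the cell cycle (0.48), and Dscaml1 (0.83). Tsc22d3 had Tnxb (0.18), S1pr1 (0.19) and Abcg1 (0.20), and Cebpd had Serpini1 (0.19), Ust (0.21) and Hspa1b (0.25).

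Nearest to the other 3 genes were Urb2 (0.090), Hbp1 (0.090) and Lrp4 (0.12) for Klf9, Mme (0.080), Togaram1 (0.082) and Ddx6 (0.097) for Nr3c1, and Prodh2 (0.16) and Nox4 (0.18) for Errfi1. The distances are a description of these 6 comparisons.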

How the data were processed

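Bulk RNA of 32 mouse kidneys was sequenced as 150 bp paired-end reads per the study's methods. The authors deposited 1 table with raw read counts per gene, not normalized, and the FPKM values derived from them. The methods name GRCm38 and the submitters' processing notes HTSeq, DESeq2 and GRCm39. The coordinates in the table equal GENCODE M21 on GRCm38 for 53585 of 54532 genes, so that build is printed. Strandedness is not given in the sources used here. The table's columns of per-sample values were all used (0 left out).

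Counts were scaled by TMM and fitted with the robust quasi-likelihood model of edgeR 4.0.16 (R 4.3.3), on the groups compared only, after the filter of filterByExpr. P-values were adjusted by Benjamini-Hochberg over the whole tested table and called under 0.05, and the SE was the log2 fold change divided by the square root of F. Interactions (male change minus female change) were fitted on the 4 groups they concern. Alternatives were DESeq2 1.42.0, limma 3.58.1 (voom with sample weights), other filters and scalings, a joint fit of the 8 groups, a block for the mouse number and each mouse left out in turn. Dropping libraries rich in adrenal cortex markers or mitochondrial counts, and the correlations with their alternatives, were chosen after seeing the data. The scripts were tested on simulated data.

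The members and gene lists were chosen with earlier results of these data known. All 7 members are named, with, from each list, up to 3 of the largest rises and 3 of the largest falls called per comparison with Day 0, and the 3 protein-coding genes most alike to each member, apart from items that are not reported here. Each library is a different mouse. The libraries held 16502107 to 35961325 counts, and the errors given cover the spread between these mice.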

Additional observations from a re-analysis of the deposited data

Results flagged for a closer look

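In 4 of the 56 sets of 4 mice (7 genes in 8 groups) 1 mouse lay far from the other 3, by Dixon's test at the 95% level. Chance would flag about 1 set in 20. At male Day 3, mouse 1 had 38.4 CPM of Zbtb16 beside 3.50 to 7.68 in the others, and 139 CPM of Klf9 beside 105 to 110. At female Day 0, mouse 4 had 143 CPM of Klf9 beside 2.35 to 16.5 in the others, and 803 CPM of Errfi1 beside 285 to 370.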

How the results depend on the processing

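Numbers of the 5 tested genes past the threshold depended on the model. The DESeq2 Wald test called 2 at male Day 2, 1, 2 and 1 at female Day 2, 3 and 5, 1 between the sexes at Day 0 and 1 in the sex difference of the Day 5 change. Voom with sample quality weights called 4 at male Day 2, 3, 3 and 2 in females, 2 and 3 between the sexes at Day 0 and Day 5, and 1 and 2 in the sex difference of the Day 2 and Day 5 changes. A joint fit over all 8 groups called 2 at male Day 2, 1 at male Day 3, 1 at each female day, 1 and 0 between the sexes at Day 0 and Day 3, and 1 in the sex difference at Day 5. With no filter on low counts, 1 was called at male Day 3, at male Day 5 and between the sexes at Day 3. With at least 10 counts in every library, which leaves out Zbtb16, 1 was called at male Day 5, as many as in the main fit besides Zbtb16. Over all genes tested at female Day 2, 3 and 5, edgeR called 320, 945 and 42, DESeq2 2132, 3625 and 731 and voom 8269, 8152 and 3070; at male Day 2, 3 and 5 edgeR called 507, 3901 and 2878, DESeq2 2938, 5589 and 4210 and voom 7446, 9081 and 8197. Other size factors and leaving out mitochondrial genes moved none of the members' counts by over 1.5 times. The mouse numbers did not pair the samples (in no comparison was every pair's correlation over 0.1, the closest being the sexes at Day 0 with 3 of 4 pairs and a range of -0.07 to 0.48). With the mouse number as a replicate block, 0, 0 and 1 were called at male Day 2, 3 and 5 and 1 between the sexes at Day 3.

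Without libraries over 100 CPM of adrenal cortex markers, 0 were called at male Day 2 and between the sexes at Day 3. Without libraries over 75% mitochondrial counts, 0 were called at male Day 5 against Day 0 and against Day 3, where only male Day 5 mouse 1, the library with the high Xist count, was left and was assumed to vary like the other group. Directions of changes that had not passed the test also turned. Without the adrenal-rich libraries Errfi1 was -0.066 at male Day 2, Klf9 -0.14 at male Day 5 and Nr3c1 -0.14 and -0.012 at female Day 2 and Day 3. Klf9 at male Day 5 was -0.53 by voom, and with that 1 library left Nr3c1 was 0.0043 and Errfi1 0.12 at male Day 5, so these 2 say nothing of direction. The cause was not tested.

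When each mouse was left out in turn, 0 to 2 of the 5 tested genes, counting Zbtb16, were called at male Day 2. In males 0 to 4 were called at Day 3, 1 to 2 at Day 5 and 1 to 4 from Day 3 to Day 5. In females it was 0 to 2, 0 to 3 and 0 to 2 at Day 2, 3 and 5, each highest without Day 0 mouse 4, where 28.3%, 39.1% and 12.6% of all genes passed. In those fits Zbtb16 and Klf9 passed at each day and Errfi1 at Day 3. Between the sexes 1 to 3 were called at Day 3 and 0 to 1 at Day 5, and 0 to 1 in the sex difference at Day 5. Log2 fold changes that crossed 0 ran from -0.13 to 0.13 for Errfi1 at male Day 2, -0.29 to 0.69 for Klf9 at male Day 5, -0.14 to 0.41 and -0.15 to 0.42 for Nr3c1 at female Day 2 and Day 3, -0.21 to 0.16 for Tsc22d3 at female Day 3, and, for Cebpd, -0.012 to 0.28 at female Day 2 and -0.51 to 0.067 between the sexes at Day 5.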
